A study of Mus musculus with 6 samples.

Results

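The genes described here are those of the proteasome, the protease complex that degrades ubiquitin-tagged proteins, together with its interferon-inducible form, the immunoproteasome. They were taken by name, as every gene of the table whose symbol begins with Psma to Psmg followed by a digit, and came to 51 of 21965 genes. The rule used no measured value. RNA from mouse samples labelled as lung tissue was sequenced in 6 libraries, 3 labelled Aa-cko and 3 labelled Aa-flox. The labels give no strain, age, treatment, time or Cre driver, do not spell out Aa or cko, and do not name the altered gene, so what limits Aa-cko as a model cannot be stated here. They do not say whether replicates were separate animals either, and the p-values then cover the scatter among these 6 libraries, which could be technical. The title of the series concerns airway allergy and names Lkb1, the kinase encoded by Stk11.

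The proteasome has a barrel-shaped 20S core of stacked rings, in which the alpha subunits (Psma) form the gate and the beta subunits (Psmb) the proteolytic chamber. A 19S regulator, made of a base with ATPase subunits (Psmc) and a lid with a deubiquitinase (both with Psmd subunits), caps the core, and alternative caps (Psme) open the gate without ubiquitin. In immune cells and under interferon gamma, Psmb8, Psmb9 and Psmb10 replace the constitutive catalytic subunits Psmb5, Psmb6 and Psmb7 and favour peptides that bind MHC class I, and Psme1 and Psme2 form the PA28 cap. Lymphocytes and macrophages express this inducible form even without infection.

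Stk11 averaged 59.4 ± 4.95 FPKM in Aa-cko and 57.2 ± 6.28 FPKM in Aa-flox libraries (mean ± SD, n = 3 each) and did not pass the test (log2 0.05, limma adjusted p = 0.721). FPKM counts fragments relative to gene length and library depth, as computed by the authors. A whole-gene value cannot show the loss of a single exon or a loss in few cells, so the directions below rest on the library labels. The label lung tissue was checked against markers. The 6 markers of alveolar type 2 cells summed to 14.1 to 17.2 FPKM in Aa-cko and 9.19 to 11.9 FPKM in Aa-flox libraries, with the surfactant gene Sftpc at 3.70 ± 1.08 and 3.14 ± 1.26 FPKM in the same order. The 5 endothelial markers summed to 24.2 to 34.4 FPKM in Aa-cko and 32.4 to 37.2 FPKM in Aa-flox libraries. Most of that was Pecam1, which leukocytes also express, with means of 26.5 and 32.2 FPKM. Vwf averaged 2.55 and 1.51 FPKM, Kdr 1.08 and 0.753 FPKM, Cdh5 0.404 and 0.337 FPKM and Cldn5 0.117 and 0.472 FPKM in the same order. The T cell gene Trac averaged 169 and 421 FPKM, far above each of these structural markers. Markers of lung structural cells were thus low, so the label lung tissue may not mean whole lung.

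Promoter sequences are shown for 6 members on which the comparison turns: Psmb9, Psmb10 and Psme1, which were higher in Aa-cko, Psmb8, the third inducible catalytic subunit, and Psmd12 and Psme3, which were lower. Each runs 5′ to 3′ from 250 bases before to 50 bases after the transcription start (RefSeq, GRCm38.p6) and lies at chr17:34187281-34187580 on the minus strand for Psmb9, chr8:105938343-105938642 on the minus strand for Psmb10, chr17:34197945-34198244 on the plus strand for Psmb8, chr14:55578244-55578543 on the plus strand for Psme1, chr11:107479278-107479577 on the plus strand for Psmd12, and chr11:101315963-101316262 on the plus strand for Psme3. Capitals mark matches, on either strand, to the cores of 4 motifs: GAAA, any 2 bases and GAAA again for the interferon-stimulated response element, TTCNNNGAA of the gamma-activated sequence, an element of interferon gamma responses, TGACNNNGC of the antioxidant response element bound by NFE2L1 and NFE2L2, and CACGTG, the E-box bound by MYC and its relatives.
Psmb9: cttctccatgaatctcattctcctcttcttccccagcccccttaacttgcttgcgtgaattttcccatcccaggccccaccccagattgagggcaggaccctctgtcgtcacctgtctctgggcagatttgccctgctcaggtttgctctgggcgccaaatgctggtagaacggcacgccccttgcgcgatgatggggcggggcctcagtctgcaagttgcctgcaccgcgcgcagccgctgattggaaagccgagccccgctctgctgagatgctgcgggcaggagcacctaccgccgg
Psmb10: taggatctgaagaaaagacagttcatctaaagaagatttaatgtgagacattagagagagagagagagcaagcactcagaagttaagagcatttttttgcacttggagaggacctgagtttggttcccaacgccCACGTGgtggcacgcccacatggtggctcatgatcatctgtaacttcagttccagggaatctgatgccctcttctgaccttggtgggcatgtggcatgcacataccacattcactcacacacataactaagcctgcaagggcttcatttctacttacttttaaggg
Psmb8: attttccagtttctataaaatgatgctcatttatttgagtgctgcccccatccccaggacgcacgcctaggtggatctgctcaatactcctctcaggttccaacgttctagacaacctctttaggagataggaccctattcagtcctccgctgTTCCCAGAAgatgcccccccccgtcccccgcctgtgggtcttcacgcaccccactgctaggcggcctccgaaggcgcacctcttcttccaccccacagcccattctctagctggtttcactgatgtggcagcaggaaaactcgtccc
Psme1: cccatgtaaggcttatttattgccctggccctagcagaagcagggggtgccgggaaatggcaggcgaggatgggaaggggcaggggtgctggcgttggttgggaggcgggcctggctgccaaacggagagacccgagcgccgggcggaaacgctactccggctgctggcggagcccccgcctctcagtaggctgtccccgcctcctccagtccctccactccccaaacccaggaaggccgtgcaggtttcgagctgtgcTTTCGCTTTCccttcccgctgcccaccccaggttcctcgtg
Psmd12: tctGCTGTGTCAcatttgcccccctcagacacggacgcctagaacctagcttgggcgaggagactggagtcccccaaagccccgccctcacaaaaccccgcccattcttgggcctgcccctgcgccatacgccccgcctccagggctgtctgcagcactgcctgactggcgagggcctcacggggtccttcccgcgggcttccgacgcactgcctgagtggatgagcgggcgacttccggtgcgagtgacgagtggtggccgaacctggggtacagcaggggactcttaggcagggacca
Psme3: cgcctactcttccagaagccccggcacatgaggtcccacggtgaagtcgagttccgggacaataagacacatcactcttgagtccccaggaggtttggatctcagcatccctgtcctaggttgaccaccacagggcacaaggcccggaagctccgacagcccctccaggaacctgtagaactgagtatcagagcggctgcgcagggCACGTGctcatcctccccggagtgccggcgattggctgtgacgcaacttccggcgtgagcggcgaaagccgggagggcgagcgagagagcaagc
The Psmb8 window held 1 gamma-activated core, the Psme1 window 1 interferon-stimulated core, the Psmd12 window 1 antioxidant core, the Psmb10 and Psme3 windows 1 E-box each, and the Psmb9 window none of these letters. Over the 47 promoter entries of the 43 members with one, the interferon-stimulated core stood in 5, the gamma-activated core in 3, the antioxidant core in 6 and the E-box in 5. These are 10.6%, 6.38%, 12.8% and 10.6% of the member entries. Over all 32851 promoters of the same length the shares were 3.44%, 8.30%, 12.4% and 7.15% in that order. Over the 10866 promoters of genes tested here they were 3.38%, 6.87%, 14.5% and 10.1%. Members with the interferon-stimulated core were Psmb3, Psmd4, Psmd9, Psme1 and Psmg4, of which only Psme1 is an inducible member. It stood in 1 of the 6 entries of the inducible members. A match describes letters and shows no binding. Each sequence shown is that of the first RefSeq start listed for its gene. The windows of Psmb8, Psmb9 and Psme1 lie wholly inside their GENCODE gene spans, so sequence before the outermost start is not covered.

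Of the 51 members, 49 reached at least 1 FPKM in at least 3 libraries and were tested with all other such genes by limma on log2(FPKM + 1). Those that did not were Psma8, an alpha subunit of the testis, with 0.293, 0.364 and 0.324 FPKM in Aa-cko and 0.181, 0.256 and 0.147 FPKM in Aa-flox libraries, and Psmb11, the beta subunit of the thymic cortex, with 0.042 FPKM in 1 Aa-cko library and 0 in the other 5 libraries. A further 3 genes carry a subunit's name without being a subunit: Psmc3ip, which pairs chromosomes in meiosis, Psme3ip1, which binds the Psme3 protein, and Psme2b, a copy of Psme2. All 3 are counted among the 49 tested members. The 41 tested genes of Psma to Psme averaged between 9.64 and 211 FPKM in a group. These 41 include Psmd5, Psmd9 and Psmd10, chaperones of base assembly, and the lowest mean was that of Psmd9. The 4 assembly chaperones Psmg1 to Psmg4 averaged between 7.57 and 14.9 FPKM. Depth inferred from the spacing of low values was 14.2 to 17.4 M fragments. At that depth each value of the 41 genes rested on about 407 fragments or more, the lowest being Psmd10. Each Psmg value rested on about 89 or more. FPKM is scaled by length, so these levels can be set side by side between genes only as far as the authors' gene lengths hold. Those lengths are not given.

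Most proteasome genes did not pass the test. With limma, 10 of the 49 tested members had an adjusted p under 0.05, against 42.4% of all 10849 genes tested. Of these, 4 were higher in Aa-cko (Psmb9, Psmb10, Psme1 and Psmg4), against 19.2% of all genes, and 6 were lower (Psmd12, Psme3, Psme4, Psmc6, Psmd7 and Psmc3ip), against 23.2% of all genes. The median log2 fold change, Aa-cko minus Aa-flox, was -0.03 over the members and -0.05 over all genes tested. Groups without overlap were seen for 5 members with all Aa-cko libraries above and 12 with all below, against 23.8% and 29.6% of all genes. The split depended on the scaling. As deposited, 40% of the called members were higher. With upper quartile scaling, under which the median of all genes was 0.07, 6 members were higher and 2 lower, or 75% higher, against 25% and 16% of all genes. With libraries scaled to a common sum, 3 were higher and 13 lower, or 18.8% higher, against 14.5% and 25.8% of all genes. Without the 20 most abundant genes in the scaling, 4 were higher and 11 lower, or 26.7% higher, against 16% and 23.8% of all genes. With quantile normalization, 4 were higher and 3 lower, or 57.1% higher, against 20.8% and 21.2% of all genes. Psmb9, Psmd12 and Psme3 passed in all 17 other settings tried, and each of the other 7 called members failed in at least 5 of them.

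**Figure D1:**
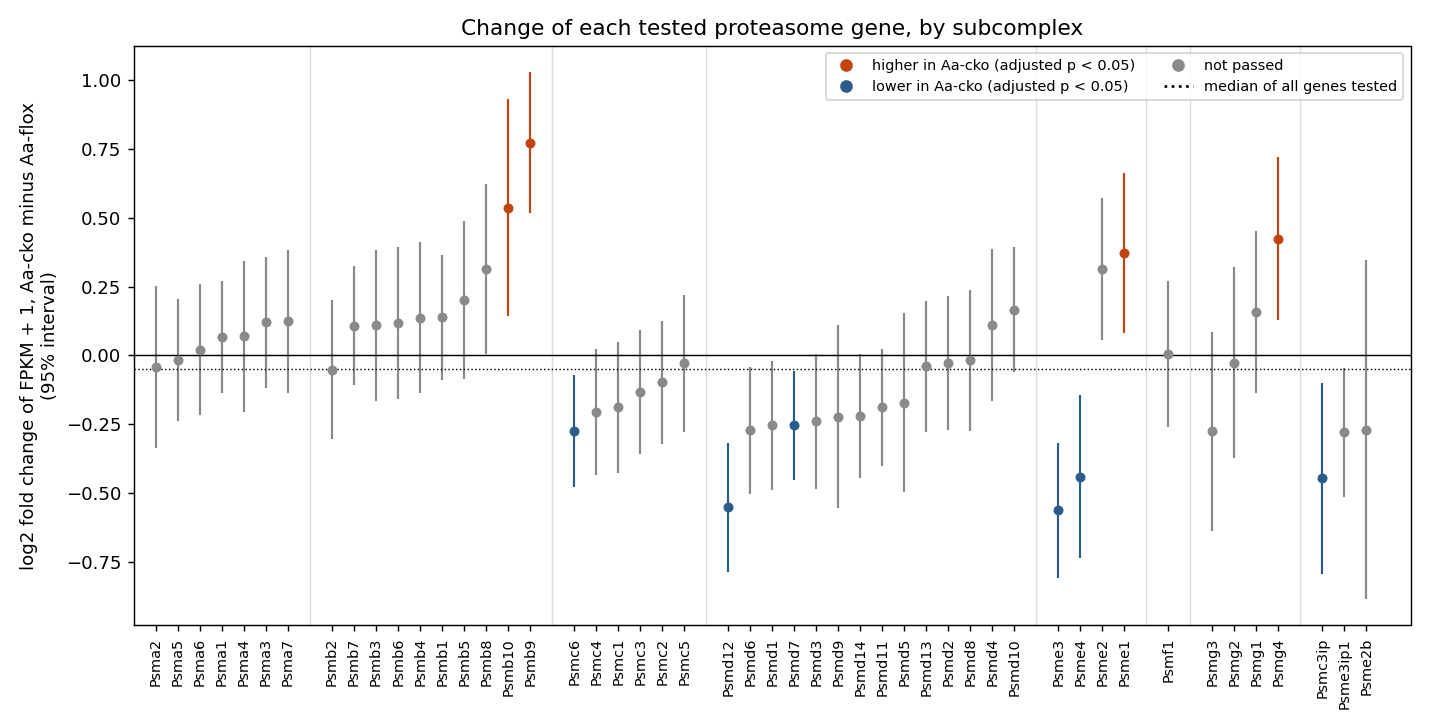
Log2 fold change of FPKM + 1 (Aa-cko minus Aa-flox) of the 49 tested members with 95% intervals, grouped by subcomplex and sorted by value. Coloured points passed an adjusted p of 0.05, grey points did not, and the dotted line is the median of all genes tested (-0.05). As deposited, the 6 Psmc and 12 of 14 Psmd points lie below 0; with upper quartile scaling 3 and 9 do.

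The libraries of a group were ordered alike for most members. Among the Aa-cko libraries, replicate 2 was highest for 35 and replicate 3 lowest for 38 of the 49 tested members, against 34.0% and 33.8% of all genes tested. Among the Aa-flox libraries, replicate 3 was lowest for 28 of 49, against 34.2% of all genes. The members' values within a group are therefore not independent of each other. Replicate 2 of Aa-cko also had the largest column sum, 607447 FPKM, against a range of 536240 to 570320 FPKM in the other Aa-cko and 513648 to 547058 FPKM in the Aa-flox libraries. The part of this in the results was not tested; ratios within a library, which do not depend on the scaling, are given below.

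Psmb9, the inducible subunit that takes the place of Psmb6, had the largest rise among the members. It lies in the MHC region on chromosome 17 from 34181987 to 34187764 on the minus strand of mm10 (ENSMUSG00000096727). It had 33.3, 32.0 and 28.0 FPKM in Aa-cko libraries, against 16.2, 17.6 and 19.5 FPKM in Aa-flox libraries. All 3 Aa-cko values lay above all Aa-flox values. The ratio of the means was 1.75, with a log2 fold change of 0.77 ± 0.11 (SE) and a 95% interval from 0.518 to 1.03 (limma adjusted p = 0.000712). Leaving out single libraries gave adjusted p up to 0.00653. Its exons overlap those of Tap1, a peptide transporter gene on the opposite strand, by 212 bases or 5.79% of its exon bases, and the counting is not stated to use strand, so reads there cannot be told apart. Tap1 had 74.0, 66.6 and 69.5 FPKM in Aa-cko libraries, against 57.3, 52.3 and 49.2 FPKM in Aa-flox libraries, and was higher as well (log2 0.40 ± 0.10, adjusted p = 0.00972).

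Psmb10, the counterpart of Psmb7, lies on chromosome 8 from 105935735 to 105938444 (minus strand). It had 43.5, 55.6 and 33.0 FPKM in Aa-cko libraries, against 34.2, 28.1 and 26.3 FPKM in Aa-flox libraries. The groups overlapped, since the lowest Aa-cko library lay below the highest Aa-flox library. The log2 fold change was 0.54 ± 0.18 (limma adjusted p = 0.0330), and the call ended with no filter on low values and without Aa-cko replicate 1 or 2 or Aa-flox replicate 2 or 3 (adjusted p up to 0.0971).

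Psmb8, the counterpart of Psmb5 and a neighbour of Psmb9 beyond Tap1 on chromosome 17 (34197721 to 34201454, plus strand), did not pass. It had 128, 155 and 112 FPKM in Aa-cko libraries, against 114, 111 and 90.9 FPKM in Aa-flox libraries. The lowest Aa-cko library lay between the Aa-flox libraries. The log2 fold change was 0.31 ± 0.14, with a 95% interval from 0.00511 to 0.623 and limma adjusted p = 0.0936. Among the fits without a replicate block, it passed under upper quartile scaling and without Aa-cko replicate 3. An antisense gene of GENCODE, Gm20496, covers 14.7% of its exon bases.

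Psme1 and Psme2, which form the PA28 cap together, lie 5911 bases apart on chromosome 14. Psme1 had 206, 246 and 181 FPKM in Aa-cko libraries, against 167, 175 and 144 FPKM in Aa-flox libraries. The groups did not overlap, the log2 fold change was 0.37 ± 0.13 and limma adjusted p = 0.0426. Leaving out any single library except Aa-cko replicate 3 ended the call, with adjusted p up to 0.145. It also ended with no filter, without trend and robust moderation, and with the GC trend removed. Psme2 had 134, 153 and 119 FPKM in Aa-cko libraries, against 115, 111 and 99.4 FPKM in Aa-flox libraries. Its groups did not overlap either, and its log2 fold change of 0.31 ± 0.12 had adjusted p = 0.0507. Without a replicate block, it passed under upper quartile scaling, with a filter of 5 FPKM and without Aa-cko replicate 3. Psme2b, the copy of Psme2, averaged 0.973 FPKM in Aa-cko and 1.53 FPKM in Aa-flox libraries, and reads shared between them would make both values uncertain.

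Side by side, all 5 interferon-inducible members had a positive log2 fold change, with a median of 0.37 and 3 called higher. The other 44 tested members, which include Psmc3ip, Psme3ip1 and Psme2b, had a median of -0.04, with 1 called higher and 6 lower. Of all genes, 19.2% were higher and 23.2% lower. The 5 stayed positive under the 4 other scalings and with trends with exon length or GC content removed. These medians describe the members and carry no test.

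The constitutive catalytic subunits, which hold the same places in the core, did not pass. Psmb6 had 150, 167 and 126 FPKM in Aa-cko libraries, against 144, 141 and 122 FPKM in Aa-flox libraries (log2 0.12, adjusted p = 0.473). Psmb7 had 81.4, 90.5 and 77.7 FPKM in Aa-cko libraries, against 78.0, 73.8 and 79.2 FPKM in Aa-flox libraries (log2 0.11, adjusted p = 0.392). Psmb5 had 69.7, 88.2 and 69.5 FPKM in Aa-cko libraries, against 71.8, 68.7 and 56.7 FPKM in Aa-flox libraries (log2 0.20, adjusted p = 0.235). In each of the 3 genes the Aa-cko and Aa-flox libraries overlapped.

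**Figure D2:**
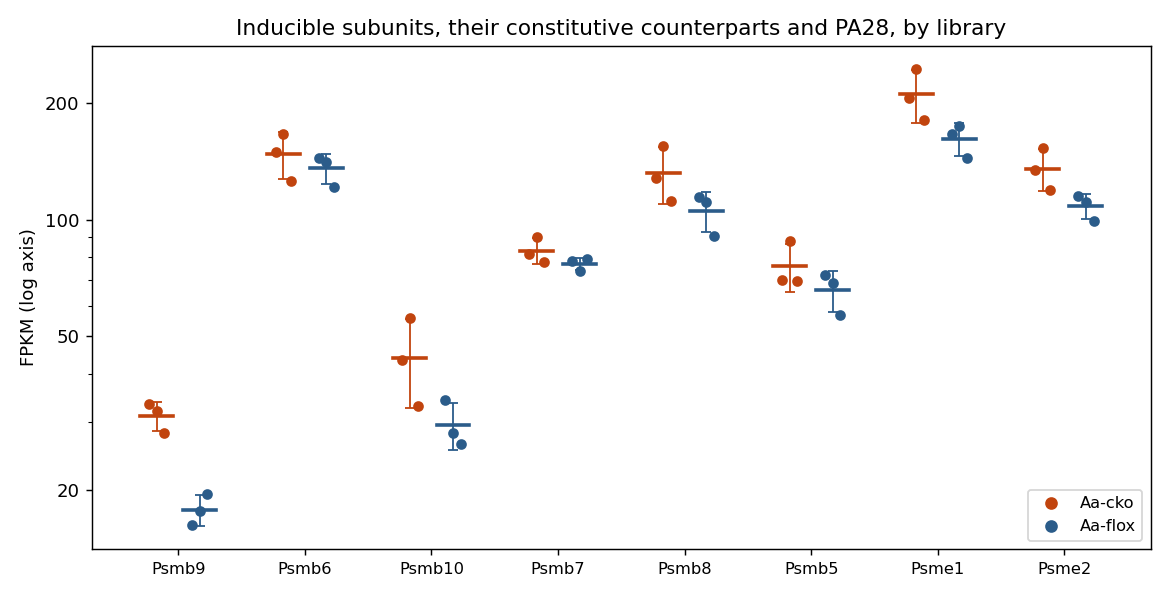
FPKM (log axis) of the inducible subunits, their constitutive counterparts and the PA28 genes in each library, with group means (bars) and SD (error bars), Aa-cko left of Aa-flox. Psmb9 is well apart between the groups (28.0 to 33.3 against 16.2 to 19.5 FPKM), while Psmb5, Psmb6 and Psmb7 overlap.

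Within a library, the inducible gene's share of its pair differed by pair. Psmb9 made up 18.2%, 16.1% and 18.2% of Psmb9 and Psmb6 together in Aa-cko libraries, against 10.1%, 11.1% and 13.8% in Aa-flox libraries. The groups did not overlap, the ratio of the pair was 1.61-fold higher in Aa-cko, and the two-sided exact permutation p was 0.1, the smallest that 3 against 3 libraries allow (0.2 adjusted over the 3 pairs). Psmb10 made up 34.8%, 38.1% and 29.8% of its pair with Psmb7 in Aa-cko libraries, against 30.5%, 27.6% and 24.9% in Aa-flox libraries, with overlap of 1 library (exact permutation p = 0.2). Psmb8 made up 64.8%, 63.8% and 61.7% of its pair with Psmb5 in Aa-cko libraries, against 61.4%, 61.8% and 61.6% in Aa-flox libraries (exact permutation p = 0.2). By FPKM, and with the limit on gene lengths given above, Psmb8 was thus the larger gene of its pair in every library of both groups. Psmb9 and Psmb10 were the smaller of theirs.

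Markers of immune cell types also differed between the groups; of all genes 19.2% were higher and 23.2% lower. Of 8 macrophage and monocyte markers all 8 were higher, with a summed level of 2039 to 2599 FPKM in Aa-cko and 708 to 874 FPKM in Aa-flox libraries. Of 7 B cell markers all 7 were higher, with sums of 162 to 204 FPKM and 69.9 to 92.0 FPKM in the same order. Of 10 T cell markers 7 were lower and 0 higher, with sums of 781 to 834 FPKM and 1460 to 1767 FPKM. Of 6 plasma cell markers 5 were tested and 4 were higher, with sums of 291 to 327 FPKM and 207 to 223 FPKM. Of 7 markers of group 2 innate lymphoid cells 4 were higher and 2 lower, with sums of 144 to 167 FPKM and 160 to 164 FPKM. None of these markers was at 0 in the mean of either group, and their part in the change of the inducible members was not tested. In such mixed RNA, fewer cells of a type and less RNA per cell cannot be told apart.

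No gene of the constitutive 20S core was called. None of the 7 tested alpha subunits and none of the 7 constitutive beta subunits passed the limma test in either direction, with adjusted p from 0.235 to 0.903. Of all genes tested, 42.4% passed. Psma7, the alpha subunit with the highest fold change, had 134, 158 and 123 FPKM in Aa-cko libraries, against 136, 128 and 116 FPKM in Aa-flox libraries (log2 0.12, 95% interval -0.136 to 0.383). Psma2, the alpha subunit with the lowest, had 64.5, 77.5 and 55.5 FPKM in Aa-cko libraries, against 61.8, 74.7 and 65.8 FPKM in Aa-flox libraries (log2 -0.04, interval -0.339 to 0.252). Psmb2, the lowest of the beta subunits, had 122, 119 and 95.1 FPKM in Aa-cko libraries, against 118, 118 and 111 FPKM in Aa-flox libraries (log2 -0.05, interval -0.306 to 0.202). The groups overlapped for all 14 genes, and all 14 intervals of the difference include 0. Over all genes, 23.8% had every Aa-cko library above every Aa-flox library and 29.6% had every one below.

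Of the 17 genes of the 19S base and lid whose symbols fit the name rule, 3 were lower in Aa-cko, 0 higher and 14 did not pass. That is 17.6% lower, against 23.2% of all genes, and the share depended on the setting. With libraries scaled to a common sum 9 of 17 were lower (52.9%, against 25.8% of all genes), and without the 20 most abundant genes in the scaling 7 of 17 (41.2%, against 23.8%). With the exon length trend removed 7 of 17 were lower (41.2%, against 23.3% of all genes lower and 22.5% higher). Under upper quartile scaling 1 of 17 was lower (5.88%, against 16%), as under quantile normalization (against 21.2%). Leaving out single libraries gave 1 to 4 of 17. The log2 fold change was negative for 16 of the 17 as deposited, but for 10 of the 17 with upper quartile scaling. All Aa-cko libraries lay below all Aa-flox libraries for 8 of the 17, against 29.6% of all genes. Psmd12, a scaffold subunit of the lid, had the lowest fold change of them. It lies on chromosome 11 from 107479484 to 107504362 (plus strand) and had 48.9, 51.0 and 47.2 FPKM in Aa-cko libraries, against 68.9, 82.0 and 67.1 FPKM in Aa-flox libraries. The groups were far apart, with a ratio of the means of 0.675, a log2 fold change of -0.55 ± 0.11 and limma adjusted p = 0.00258. Psmd7, the lid partner of the deubiquitinase Psmd14, had 52.7, 53.6 and 51.5 FPKM in Aa-cko libraries, against 65.3, 62.4 and 61.0 FPKM in Aa-flox libraries (log2 -0.25 ± 0.09, adjusted p = 0.0421). Psmc6, an ATPase of the base, had 52.9, 54.3 and 56.1 FPKM in Aa-cko libraries, against 69.3, 66.8 and 62.3 FPKM in Aa-flox libraries (log2 -0.28 ± 0.09, adjusted p = 0.0352). Both genes had groups that did not overlap, and both calls ended under upper quartile scaling, under quantile normalization, without trend and robust moderation, and without Aa-cko replicate 1 or Aa-flox replicate 1 or 2. The call of Psmd7 also ended without Aa-cko replicate 3 or Aa-flox replicate 3, and that of Psmc6 without Aa-cko replicate 2 or with the GC trend removed (adjusted p up to 0.363 and 0.614).

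Psmd6 and Psmd1, scaffold subunits of the lid and the base, had log2 fold changes of -0.27 and -0.26 and did not pass (adjusted p = 0.0571 and 0.0762), with all Aa-cko libraries below all Aa-flox libraries. Psmc5, another ATPase, had 65.8, 69.5 and 57.3 FPKM in Aa-cko libraries, against 71.4, 65.6 and 59.6 FPKM in Aa-flox libraries (log2 -0.03, adjusted p = 0.848). Psmd10, known as gankyrin and a chaperone of base assembly, had the highest fold change of the Psmd genes, with 20.2, 20.8 and 19.7 FPKM in Aa-cko libraries, against 17.1, 19.1 and 17.6 FPKM in Aa-flox libraries (log2 0.17, adjusted p = 0.216). Its groups did not overlap. The other positive Psmd gene was Psmd4, a ubiquitin receptor of the base (log2 0.11, adjusted p = 0.501). Adrm1 and Sem1, 19S genes whose symbols fall outside the name rule, had log2 fold changes of -0.25 and 0.24. Neither passed (limma adjusted p = 0.126 and 0.0964 in that order).

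Set against the core within each library, the 19S sums were lower in every Aa-cko library. The summed FPKM of 9 base genes was 0.431, 0.396 and 0.442 of that of the 14 constitutive core genes in Aa-cko libraries, against 0.486, 0.471 and 0.489 in Aa-flox libraries. For the 8 lid genes it was 0.390, 0.359 and 0.385 in Aa-cko libraries, against 0.444, 0.456 and 0.455 in Aa-flox libraries. Neither ratio overlapped between the groups, and neither depends on the scaling of libraries. These sums leave out Adrm1 and Sem1, were formed after the values were seen and carry no test. Relative to the median of all genes, the median of the 17 base and lid genes was -0.14 and that of the 14 core genes 0.16 as deposited, and under the 4 other scalings these ran from -0.16 to -0.12 and from 0.08 to 0.18. The median exon length was 2820 bases for the 17 base and lid genes and 2335 bases for the 14 core genes. With the trend with exon length removed, the medians relative to all genes were -0.17 and 0.03, and with the trend with GC content removed -0.07 and 0.14.

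**Figure D3:**
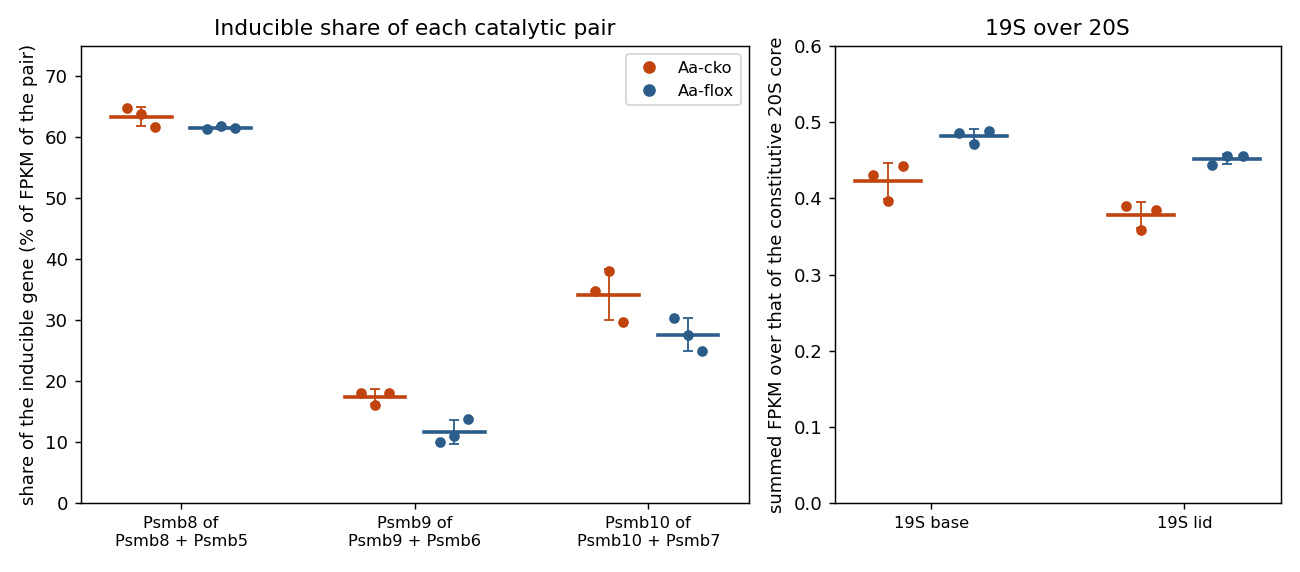
Left, the inducible gene's share of the FPKM of its catalytic pair in each library (%). Right, summed FPKM of 9 base and 8 lid genes over that of the 14 constitutive core genes. Points are libraries, bars means and error bars SD, with Aa-cko left of Aa-flox; the share of Psmb9 and both 19S ratios separate the groups.

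The other caps were lower where Psme1 was higher. Psme3, which forms a nuclear cap not induced by interferon gamma, lies on chromosome 11 from 101316213 to 101323537 (plus strand) and had 42.2, 35.5 and 44.6 FPKM in Aa-cko libraries, against 60.3, 57.3 and 63.9 FPKM in Aa-flox libraries. The groups did not overlap, with a ratio of the means of 0.674, a log2 fold change of -0.56 ± 0.11 and limma adjusted p = 0.00294. Psme4, the large single-chain cap PA200, had 14.0, 11.7 and 14.9 FPKM in Aa-cko libraries, against 17.4, 17.3 and 21.6 FPKM in Aa-flox libraries. It fell by 0.44 ± 0.13 on the log2 scale (adjusted p = 0.0234), and the call ended under upper quartile scaling, quantile normalization and without Aa-cko replicates 1 or 2 or Aa-flox replicate 3. The sum of Psme1 and Psme2, which rose or narrowly missed the threshold as given above, was 8.08, 11.2 and 6.73 times the level of Psme3 in Aa-cko libraries, against 4.67, 4.99 and 3.82 times in Aa-flox libraries. Every Aa-cko ratio was above every Aa-flox ratio, a sum formed after the values were seen. Psmf1, the inhibitor PI31, averaged 17.7 ± 1.70 FPKM in Aa-cko and 17.6 ± 1.62 FPKM in Aa-flox libraries and did not pass.

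Of the 4 assembly chaperones Psmg1 to Psmg4, which help the alpha ring form, only Psmg4 passed (25% higher, against 19.2% of all genes). It had 15.5, 16.0 and 13.3 FPKM in Aa-cko libraries, against 11.6, 11.9 and 9.21 FPKM in Aa-flox libraries (log2 0.42 ± 0.13, limma adjusted p = 0.0279). The groups did not overlap, and with the exon length trend removed the log2 fold change was 0.04 (adjusted p = 0.763). The call also ended with libraries scaled to a common sum, with no filter, and without Aa-cko replicate 1 or 2 or Aa-flox replicate 3. Psmg3, its partner, had 7.52, 9.23 and 5.97 FPKM in Aa-cko libraries, against 9.13, 8.19 and 10.6 FPKM in Aa-flox libraries, with overlap (log2 -0.28, adjusted p = 0.194). The meiotic gene Psmc3ip averaged 2.66 ± 0.363 FPKM in Aa-cko and 4.01 ± 0.785 FPKM in Aa-flox libraries (log2 -0.45, adjusted p = 0.0417), and 21.2% of its exon bases overlap Mlx on the opposite strand. Its call ended in 7 of 16 other settings.

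**Figure D4:**
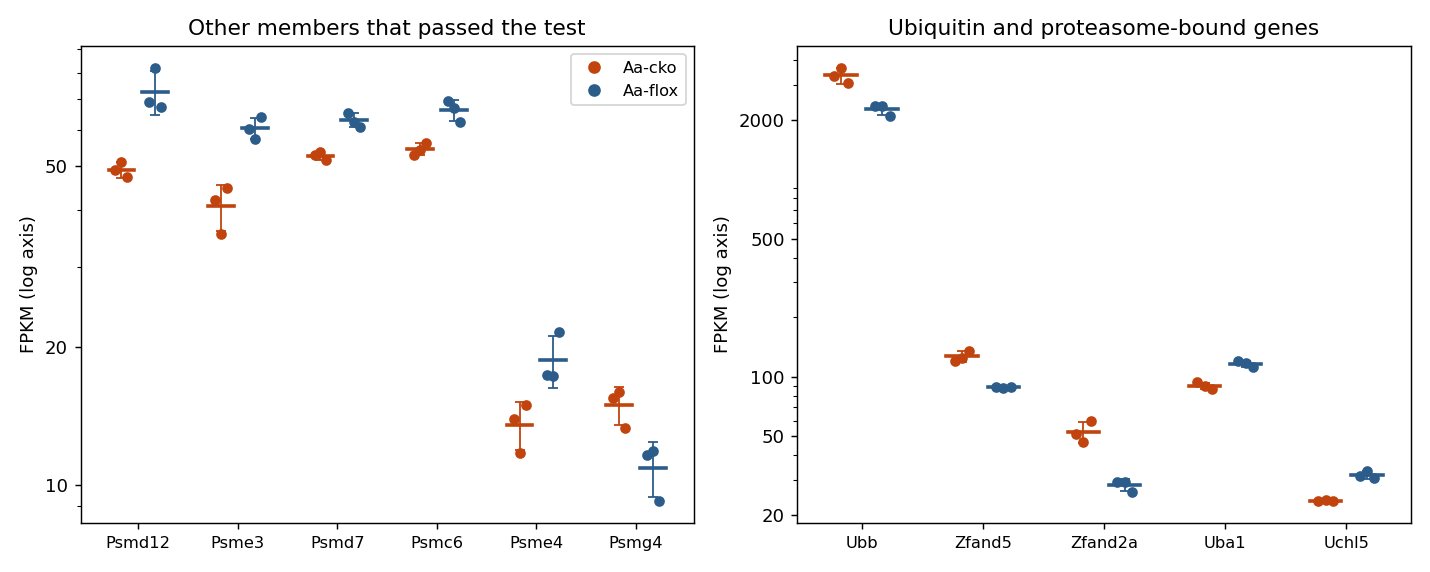
FPKM (log axes) by library, with means (bars) and SD (error bars), Aa-cko left of Aa-flox. Left, the remaining subunits and chaperones that passed the test; right, ubiquitin genes and proteasome-bound factors. Psmd12 and Psme3 are lower, and Ubb, Zfand5 and Zfand2a higher in every Aa-cko library.

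Genes that supply ubiquitin or attach to the proteasome were read from lists of their own. Ubb, a polyubiquitin gene, had 3331, 3671 and 3056 FPKM in Aa-cko libraries, against 2344, 2348 and 2093 FPKM in Aa-flox libraries. The groups did not overlap, and the log2 fold change was 0.57 ± 0.12 (limma adjusted p = 0.00462). Uba1, the main ubiquitin-activating enzyme, fell by 0.37 ± 0.09 on the log2 scale and Faf1, a cofactor of the unfoldase VCP, by 0.31 ± 0.11. Of the 13 genes of this list 1 was higher (7.69%, against 19.2% of all genes), 2 lower (15.4%, against 23.2%) and 10 did not pass, with a median of -0.08 against -0.05 for all genes. The falls of Uba1 and Faf1 ended under upper quartile scaling.

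Among 19 assembly and associated factors, 2 were higher, 3 lower and 14 did not pass, with a median of -0.12. Both shares, 10.5% and 15.8%, were below those of all genes (19.2% and 23.2%). Zfand2a, which binds the 19S particle under arsenite stress, averaged 52.6 ± 6.42 FPKM in Aa-cko and 28.3 ± 1.93 FPKM in Aa-flox libraries (SD, n = 3 each; log2 0.87 ± 0.11, adjusted p = 0.000373). Zfand5, which stimulates the proteasome, rose by log2 0.51 ± 0.09. Uchl5 and Usp14, the deubiquitinases that dock on the 19S regulator, fell by 0.42 ± 0.09 and 0.31 ± 0.11. The third lower gene was Ube3c, a proteasome-bound ubiquitin ligase (log2 -0.43). Paaf1 was not analysed here.

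NFE2L1 is the transcription factor that raises proteasome genes when the proteasome is inhibited. Of the 8 genes of its list 3 were lower, 0 higher and 5 did not pass (median -0.06), or 37.5% lower, against 23.2% of all genes lower and 19.2% higher. Nfe2l1 itself had 27.7, 25.1 and 28.6 FPKM in Aa-cko libraries, against 32.8, 34.1 and 34.4 FPKM in Aa-flox libraries (log2 -0.31 ± 0.10, adjusted p = 0.0287). Hcfc1 and Ogt, whose products act together to stabilise it, had log2 fold changes of -0.84 ± 0.15 and -0.57 ± 0.13. Vcp, which extracts it from the endoplasmic reticulum, did not pass (log2 -0.07).

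Among 15 genes of MHC class I antigen processing, which uses the peptides the immunoproteasome makes, 6 were higher, 2 lower and 7 did not pass (median 0.24). These are 40% and 13.3%, against 19.2% and 23.2% of all genes. The class I heavy chains H2-D1 and H2-K1 rose by log2 0.59 ± 0.10 and 0.49 ± 0.12, and Tapbpl, a peptide editor, fell by 0.90 ± 0.11. The other lower gene was Tpp2, a peptidase that trims proteasome products (log2 -0.48). Of 9 genes of interferon gamma signalling 2 were higher, 4 lower and 3 did not pass (median -0.31), or 22.2% and 44.4%, against 19.2% and 23.2% of all genes. Ifng fell by 1.95 ± 0.22 on the log2 scale, and the receptor genes Ifngr1 and Ifngr2 rose by log2 0.71 ± 0.09 and 0.85 ± 0.10. The transcription factor gene Irf2 fell by log2 0.65 ± 0.14. Irf1, a transcription factor known to act on the Psmb9 and Tap1 promoter, did not pass (log2 0.16).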

How the data were processed

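The source was 1 deposited table of FPKM values, computed by the authors for 21965 genes in 6 libraries. Per the labels' protocols RNA came from a column kit and libraries from a SMARTer mRNA kit. Per the submitters' processing notes the genome build was mm10. Which aligner and annotation were used is not given in the sources used here. Positions, exon lengths and overlaps come from GENCODE M21 on the same assembly, in which 21806 identifiers were found. Column names matched the sample titles, and groups come from the titles.

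The steps of low FPKM values gave an approximate depth: 40.2 to 45.1% of held-out low values came within 0.1 of a whole fragment, where chance gives 20%. No count test was run. The number of fragments limits precision by counting error only.

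A minimum of 1 FPKM in 3 or more libraries left 10849 genes. Their log2(FPKM + 1) values entered limma 3.58.1 (R 4.3.3), with group as the only term, an intensity trend and robust moderation. Adjusted p-values are Benjamini-Hochberg values over all of them, and 0.05 is the threshold. Fold changes are Aa-cko minus Aa-flox on this scale, which understates low genes. Tables were handled in Python 3.11.15 with pandas 2.3.3. The steps were tested on simulated data, in which the spread between libraries was set and not estimated from these libraries. Changes of 1.25-, 1.5-, 2- and 4-fold were recovered for 18%, 80%, 98% and 100% of the changed genes. Of the calls, 6.92% were false. Only 50 genes were changed at each fold, of 10680 tested, whereas 42.4% of genes were called in the real data. The simulated shares need not hold for these libraries. Ratios within a library used exact permutation over the 6 libraries.

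Members, lists and tests were chosen with earlier results of these data known. Values by library are given for the 5 inducible members, their 3 constitutive counterparts and the highest and lowest tested gene of each subcomplex; of other lists up to 4 genes with the smallest p are named. The other called members, Psme2b, Psma8, Psmb11, Psmd4, Psmf1, Ube3c, Tpp2 and Psmd6 were named after their values were seen. So were Psmd1, Adrm1, Sem1, Irf1, Trac and the lung structural markers. Some genes of the pathway lists are not reported here. Alternatives covered scaling, pseudocount, filters, variance model, threshold, a replicate block, each library left out and, chosen after seeing the data, trends with exon length and GC content.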

Additional observations from a re-analysis of the deposited data

How the results depend on the processing

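Members called higher and lower numbered 4 and 6 as reported, with Psmc3ip, which is not a subunit, among the 6. Lower calls came to 13 with libraries scaled to a common sum, 11 without the 20 most abundant genes, 10 with the exon length trend removed, 3 with quantile normalization and 2 with upper quartile scaling. Without a filter 1 gene was called higher, and at an adjusted p of 0.01 1 was higher and 2 lower. Leaving out single libraries gave 1 to 6 higher and 3 to 5 lower. In every setting the share of members called, 8.16 to 32.7%, was below that of all genes tested in the same setting. Psmb9, Psmd12 and Psme3 kept their call throughout, and no called member reversed. Whether replicate numbers pair the libraries cannot be decided from so few libraries. Deviations of same-numbered libraries correlated at -0.02, 0.19 and 0.52. Aa-cko replicates 1 and 2 did not correlate best with their own number, whereas Aa-flox replicates 2 and 3 did. With a replicate block 50.8% of all genes were called, against 42.4% without it. In that fit 6 members were higher and 10 lower, and Psmb8 and Psme2 passed as higher. There 6 of the 17 base and lid genes were lower (35.3%, against 28.2% of all genes).

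Leaving out single libraries gave log2 differences of the pair ratios of 0.58 to 0.84 for Psmb9/Psmb6, 0.32 to 0.59 for Psmb10/Psmb7 and 0.07 to 0.17 for Psmb8/Psmb5. Under upper quartile scaling, lower calls numbered 1 of 3 among assembly and associated factors, 0 of 2 among ubiquitin genes and 1 of 2 in MHC class I processing. Leaving out libraries gave 1 to 3, 1 to 2 and 1 to 2 lower calls in these lists, 2 to 6 higher calls in MHC class I processing, and 2 to 3 higher calls in interferon gamma signalling. Lower calls then numbered 2 to 3 in the NFE2L1 list and 3 to 5 in interferon gamma signalling. Under upper quartile scaling, the lower calls of the NFE2L1 and interferon gamma lists are not reported here. The causes were not tested. With 3 libraries a group and no counts, changes as small as those of most members are hard to tell from 0.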
